A study of Mus musculus with 8 samples.

Results

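The genes described here are 33 genes whose products hold epithelial cells to each other or let other cells adhere to them. They were taken by symbol from the 55414 rows of a count table of mouse Paneth cells, through the GENCODE annotation. By structure, 17 belong to the tight junction, 8 to the adherens junction and 6 to the desmosome, and 2 stand outside these classes (the epithelial adhesion molecule Epcam and the leukocyte ligand Icam1). Of the 33 genes, 32 passed the filter on low counts and were tested, among 13368 genes tested in all. Cldn1 had 0 counts in every library, which allows up to 3 counts per library, and was not tested.

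Paneth cells sit in the crypts of the small intestine and secrete antimicrobial peptides. Wild-type (WT) mice, per the study's methods of the C57BL/6J strain and of an age the labels do not give, received an injection of phosphate-buffered saline (PBS) or of tumor necrosis factor (TNF), an inflammatory cytokine. The intestine was taken after 3 hours, crypts were prepared from it, and Paneth cells were collected on a cell sorter. Each treatment had 4 libraries, and the comparison asks which genes the Paneth cells change in the first hours after TNF. The study's methods describe its libraries as made from single mice.

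Epithelial cells are joined below their apical surface by 3 kinds of contact. Tight junctions seal the space between cells, and their claudins set which ions and water pass. Adherens junctions hold neighbours together through cadherins and nectins that are tied to the actin cytoskeleton, and desmosomes do so through cadherins that are tied to keratin filaments. ICAM-1, by contrast, is a surface ligand for integrins of leukocytes and is a textbook target of NF-kB, the transcription factor that TNF activates.

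After TNF, 19 of the 32 tested genes rose and 2 fell, where 23.4% of all tested genes were called higher and 19.6% lower. With libraries scaled by their total counts alone, 7 rose and 2 fell, against 5.66% and 18.1% of all tested genes. Icam1 changed most, from near absence to a level per length above that of Ocln or Tjp1. Claudins split: Cldn2, Cldn7 and Cldn12 rose more than 2-fold, Cldn8 was almost lost, and Cldn3 and Cldn15 were not called. Cadherins rose in both of the anchoring junctions (Cdh1 and Cdh17, Dsc2 and Dsg2), although with total counts alone only Dsg2 of these was called. The desmosomal linker genes Jup and Dsp and the scaffold genes Tjp3 and Cgn were not called. Among the nectins, Nectin2 rose and Nectin3 fell.

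Libraries held 23824717 to 32576077 counts, with 16712 to 19135 genes detected in each. Levels are given as normalized CPM, which is counts scaled to the size of the library (CPM) after correction with TMM factors (a trimmed mean of ratios between libraries). They are given per kilobase of the canonical transcript where genes are compared with each other. TNF replicate 4 stood apart: its alpha-defensin (Defa) genes took 51.4% of counts against 32.0% to 37.9% in the others, and its TMM factor was 0.448 against 0.995 to 1.36. Long transcripts were lower relative to short ones in TNF replicate 4 (log2 difference -0.47) and higher in PBS replicate 4 (0.32), and lay between -0.13 and 0.20 elsewhere. The Paneth markers Lyz1, Defa24, Itln1, Mmp7, Pla2g2a and Ang4 were all abundant, together at 367019 to 415262 plain CPM (scaled by all counts) in PBS and 373614 to 462505 in TNF. In normalized CPM they summed to 270486 to 395417 and 337839 to 1032090, where the highest sum was that of TNF replicate 4, and 1 of the 6 (Pla2g2a) was called higher.

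Markers of other cells were also detected, and their sums are given first in normalized CPM, the scale used for the members. The 8 enterocyte genes summed to 319 to 368 in PBS and 307 to 331 in TNF, with overlap (2 called lower, 0 higher), while in plain CPM they were at 387 to 443 and 138 to 357. The 6 stem cell genes summed to 1893 to 2781 and 1708 to 2240, with overlap (4 called lower, 0 higher), and in plain CPM to 2568 to 2963 and 907 to 2478. The 7 goblet genes summed to 3681 to 5938 in PBS and 6391 to 7626 in TNF, without overlap (2 higher, 2 lower), while in plain CPM the ranges of 3992 to 7459 and 3418 to 7865 overlapped. Within that sum Muc2 was at 1516 to 2599 and 2721 to 5875, Fcgbp and Clca1 were called lower (Clca1 at 554 in PBS replicate 1 against 41.1 to 44.0 in the other PBS libraries and 24.0 to 42.2 in TNF), and Agr2 and Tff3 were not called but reached 2681 and 1884 in TNF replicate 4. The 5 enteroendocrine genes summed to 10.3 to 13.2 and 30.3 to 61.0, without overlap (3 of 4 tested genes higher). The 3 tuft genes summed to 11.9 to 27.3 and 7.58 to 52.9 (none called), and the 7 stroma genes to 0.223 to 0.407 and 0.945 to 1.63 (the 1 tested gene, Vim, higher, and Col3a1 at 0). In these bulk samples fewer cells of a type and less RNA per cell cannot be told apart, and the part of these cells in the results was not tested.

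Genes were called at an adjusted p under 0.05 in edgeR's quasi-likelihood F test (Benjamini-Hochberg adjustment over all tested genes). The called share was 65.6% of the tested members, against 43% of all tested genes. Calls higher in TNF were 19 of 32 members, against 23.4% of all tested genes, and calls lower were 2 of 32, against 19.6%. At least 2-fold changes were called for 9 members upward (all genes, 9.76%) and for 1 downward (all genes, 8.24%). The 4 TNF values lay above all 4 PBS values for 18 members (all genes, 22.4%) and below them for 3 (all genes, 19.7%). The median log2 fold change of the tested members was 0.46, against 0.03 over all tested genes.

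With TMM factors the adherens junction had the highest share of calls, with 6 of 8 genes higher, 1 lower and a median log2 fold change of 0.82. In the desmosome 4 of 6 genes were higher and none lower, with a median of 0.46. Of the 16 tested tight junction genes 7 were higher and 1 lower, with a median of 0.22 (0.13 without TNF replicate 2). Within the tight junction the claudins had a median of 0.43 (4 of 8 higher, 1 lower), the other membrane proteins 0.44 (2 of 4 higher) and the scaffold and polarity genes 0.05 (1 of 4 higher). The differences between classes are described and were not tested. With libraries scaled by their total counts alone, the median of all tested genes moved to -0.38 and the tight junction median turned to -0.15, while the adherens and desmosome medians were 0.47 and 0.09. Relative to the median of all genes in the same fit, the 3 class medians were 0.23, 0.85 and 0.46 with total counts and 0.19, 0.80 and 0.43 with TMM. With total counts 12 of the 19 upward calls were lost (Cldn4, Marveld3, Tjp1, Cdh1, Cdh17, Ctnna1, Ctnnd1, Nectin1, Dsc2, Pkp2, Pkp3 and Epcam), and Icam1, Cldn2, Cldn7, Cldn12, F11r, Nectin2 and Dsg2 stayed called higher. With Cldn8 and Nectin3, which stayed called lower, 5 of 16 tight junction genes and 2 of 8 adherens genes were then called, so the order of these classes by share of calls turned. In that fit 23.8% of all tested genes were called, near the adherens share, and 5.66% were called higher, against 7 of the 32 members.

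**Figure D1:**
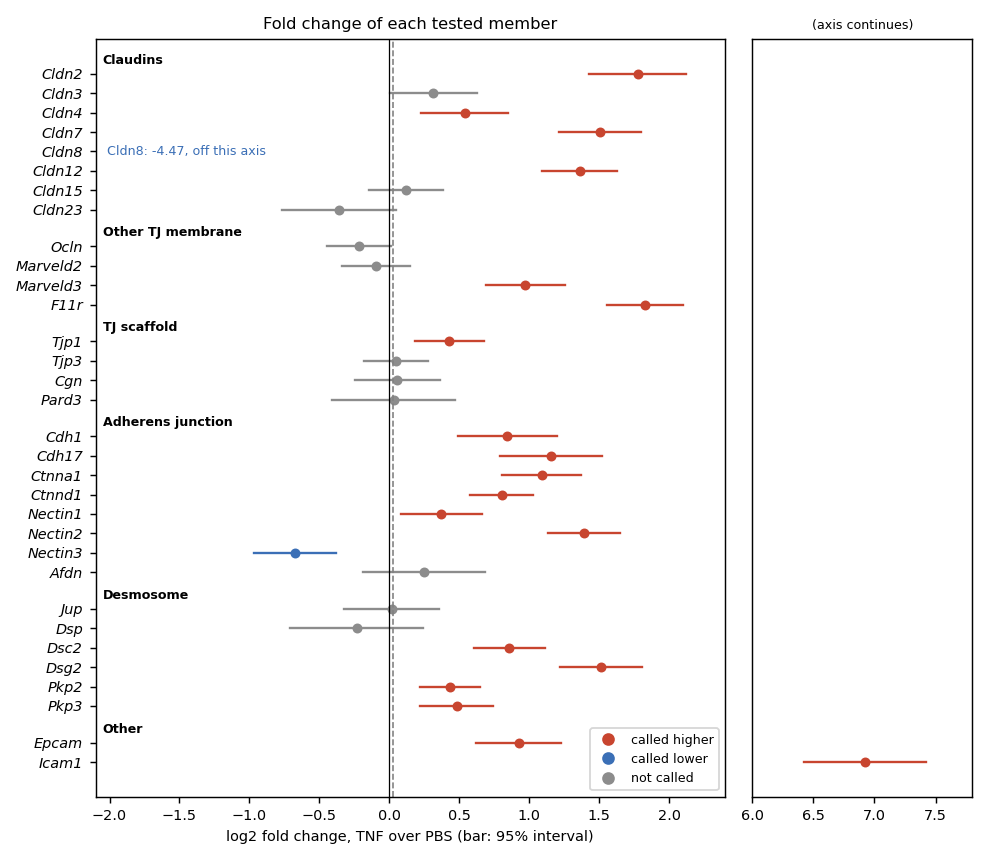
Log2 fold change (TNF over PBS, horizontal axis) of each tested gene by class, with its 95% interval; red was called higher, blue lower, grey not called, and the dashed line is the median of all tested genes (0.03). The panel on the right continues the axis for Icam1 at 6.92; most adherens junction genes lie to the right of 0 while the tight junction scaffold genes, apart from Tjp1, sit near 0, and with total-count scaling, which is not drawn, the all-gene median was -0.38.

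Icam1 (ENSMUSG00000037405, chr9:20926672-20940113 on GRCm39, plus strand) was close to absent without TNF. Its counts were 17, 9, 10 and 33 in PBS replicates 1 to 4, which is 0.456, 0.335, 0.394 and 0.747 normalized CPM. After TNF the counts were 1560, 1616, 1950 and 779, or 55.4, 55.9, 68.4 and 66.9 normalized CPM. The groups were far apart, and the lowest TNF library was TNF replicate 1. The log2 fold change was 6.92 (SE 0.22, edgeR adjusted p = 4.04e-08), a 121-fold rise, and Icam1 ranked 3 by p among all tested genes. Per kilobase its level went from 0.153 ± 0.0581 to 19.6 ± 2.22 normalized CPM (SD, n = 4), so that of the 32 tested members it was the lowest in PBS and lay between Jup and Tjp3 in TNF.

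Icam1 is also known from endothelium and leukocytes, so the markers of those cells stand beside it. The 7 endothelial genes summed to 5.76 to 6.74 normalized CPM in PBS and 2.98 to 4.89 in TNF (6.44 to 8.47 and 2.19 to 4.24 plain CPM), with Cldn5 and Tie1 at 0 in all libraries. Most of the PBS sum was Esam, which was called lower (5.48 ± 0.535 to 1.84 ± 0.176 normalized CPM, SD, n = 4). Vwf, the other of the 2 endothelial genes tested, was called higher (0.698 ± 0.183 to 1.84 ± 0.568). The 9 immune genes summed to 7.31 to 13.1 normalized CPM in PBS and 10.8 to 68.7 in TNF (9.92 to 13.98 and 11.9 to 30.8 plain CPM). Most of the highest sum was Lyz2 in TNF replicate 4, at 64.3 normalized CPM against 9.44 to 12.2 in the other TNF libraries. The immune genes Cd3e, Cd8a and Cd79a were at 0 in all libraries, and 1 of 2 tested genes (Cd52) was called higher. The antisense lncRNA gene Gm47079 shares 511 of the 4969 exon bases of Icam1. It had 5, 6, 5 and 12 counts in PBS and 272, 263, 310 and 119 in TNF. The sources used here do not say whether the counting used strand, so reads of Icam1 and Gm47079 cannot be told apart in the shared bases.

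Sequence before the RefSeq starts of Icam1, Nectin2 and F11r is shown because these genes rose at least 2-fold after TNF and carry motif letters of factors that TNF activates. RefSeq promoter windows (the 250 bases before a gene start, GRCm39) were found for 21 of the 32 tested genes, in 29 windows. They were searched on both strands for GGNNNTTCC (NF-kB type) and TGANTCA (AP-1 type), which share no bases in these windows. The NF-kB letters were in 2 of the 29 windows (Icam1 and Nectin2), against 18.3% of all 12501 windows of tested genes. The AP-1 letters were in 3 of the 29 (Cldn4, Cldn15 and F11r), against 4.43% of all windows. Capitals mark the match, and each stretch reads 5′ to 3′ on the strand of the gene. The stretches lie at chr9:20927073-20927101 and chr9:20927142-20927170 (plus strand), chr7:19483632-19483660 (minus strand) and chr1:171265010-171265036 (plus strand).
Icam1, match at -153 to -145: acttcagtttGGAAATTCCtagatcgcag
Icam1, match at -84 to -76: gtctccacccGGAAATACCgaagccctcg
Nectin2, match at -152 to -144: ggggcgcagtGGGTCTTCCcgggttgtgt
F11r, match at -109 to -103: ctgcgtacggTGAGTCActcatcggag
Positions count back from the RefSeq start. GENCODE places the starts of Icam1 (20926672) and Nectin2 (19484408) further upstream, so the stretches of these genes lie inside the GENCODE genes. No window was used for Cldn8, Cldn23, Marveld3, Cdh1, Cdh17, Ctnna1, Nectin1, Dsc2, Dsg2, Pkp2 and Pkp3. A match is a description of letters and was not tested as a binding site.

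Claudins are the membrane proteins that form the strands of the tight junction. Cldn2 (ENSMUSG00000047230, chrX:138701480-138712135, plus strand) makes a pore for cations and water. It was at 150, 141, 166 and 155 normalized CPM in PBS and at 561, 613, 512 and 411 in TNF. All TNF libraries were above all PBS libraries, with TNF replicate 4 the lowest of them. The log2 fold change was 1.78 (SE 0.16, edgeR adjusted p = 9.43e-06). Cldn7 (ENSMUSG00000018569, chr11:69852648-69858711, plus strand), a claudin found along the whole lateral membrane, was the highest claudin per kilobase in both groups. Its values were 135, 138, 145 and 121 normalized CPM in PBS and 330, 417, 387 and 397 in TNF, without overlap. It rose by 1.50 on the log2 scale (SE 0.13, edgeR adjusted p = 9.50e-06).

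Cldn12, which has been tied to calcium passage in the intestine, had 6.82 normalized CPM per kilobase in PBS against 101 for Cldn7. It was at 32.6, 36.7, 36.1 and 32.0 normalized CPM in PBS and at 73.1, 97.1, 88.6 and 94.3 in TNF. The groups did not overlap, and the log2 fold change was 1.36 (SE 0.12, edgeR adjusted p = 1.04e-05). Cldn4, a sealing claudin, rose from 58.3 ± 6.17 to 84.7 ± 13.2 normalized CPM (SD, n = 4). Its log2 fold change was 0.54 (edgeR adjusted p = 0.010), and the call was lost without PBS replicate 1 (log2 fold change 0.43) or without TNF replicate 2 (0.47).

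Cldn8 (ENSMUSG00000050520, chr16:88357716-88360071, minus strand), a barrier-forming claudin best known from the distal colon and kidney, was the member that fell most. It had 36, 37, 23 and 36 counts in PBS and 2, 1, 0 and 1 in TNF, where the count of 0 allows up to 3. In normalized CPM that was 0.965, 1.38, 0.906 and 0.814 against 0.0710, 0.0346, 0 and 0.0859. The groups were far apart, although the gene was near the detection limit in both. Summed counts went from 132 to 4, a 24.0-fold lower level after scaling (95% interval 9.15 to 89.3, counting error only), and the edgeR adjusted p was 6.89e-05.

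Cldn3 and Cldn15 were above Cldn2 per kilobase in PBS (97.4 and 74.1 against 48.7 normalized CPM) and were not called. Cldn3, a sealing claudin, was at 123 ± 15.4 and 153 ± 20.3 normalized CPM (SD, n = 4; log2 fold change 0.32, 95% interval 0.0029 to 0.63, edgeR adjusted p = 0.0960). Cldn15, the main sodium channel of the small intestinal tight junction, was at 142 ± 6.66 and 155 ± 15.6 (log2 fold change 0.12, 95% interval -0.14 to 0.38). Cldn23 was at 4.87 ± 0.384 and 3.79 ± 0.893 (log2 fold change -0.36, 95% interval -0.76 to 0.05) and was called lower only without TNF replicate 3, at -0.52. The lncRNA Wbscr25 lies antisense over 906 of the 1259 exon bases of Cldn3, and it had 67 to 132 counts in PBS and 49 to 122 in TNF against 3506 to 4569 and 1855 to 5155 for Cldn3.

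The make-up of the claudin pool differed between the groups in every library, which is described here without a test. Shares of the summed claudin level per kilobase do not depend on how libraries are scaled. The share of Cldn2 was 13.4%, 12.02%, 13.6% and 14.7% in PBS and 26.5%, 24.3%, 22.7% and 19.0% in TNF. Cldn7 went from 27.8% ± 0.519 to 39.7% ± 2.72 (SD, n = 4). Together these genes held 39.9% to 41.8% of the pool in the PBS libraries and 62.1% to 63.1% in the TNF libraries. The shares of Cldn3 (26.7% ± 1.72 to 16.8% ± 1.52), Cldn15 (20.4% ± 1.29 to 11.2% ± 1.26) and Cldn4 (8.85% ± 0.995 to 6.46% ± 0.873) were lower in TNF. In their own levels Cldn4 was called higher, and Cldn3 and Cldn15 were not called. Cldn2 stood at 0.660 ± 0.0665 of Cldn15 per kilobase in PBS and at 2.07 ± 0.186 times Cldn15 in TNF.

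**Figure D2:**
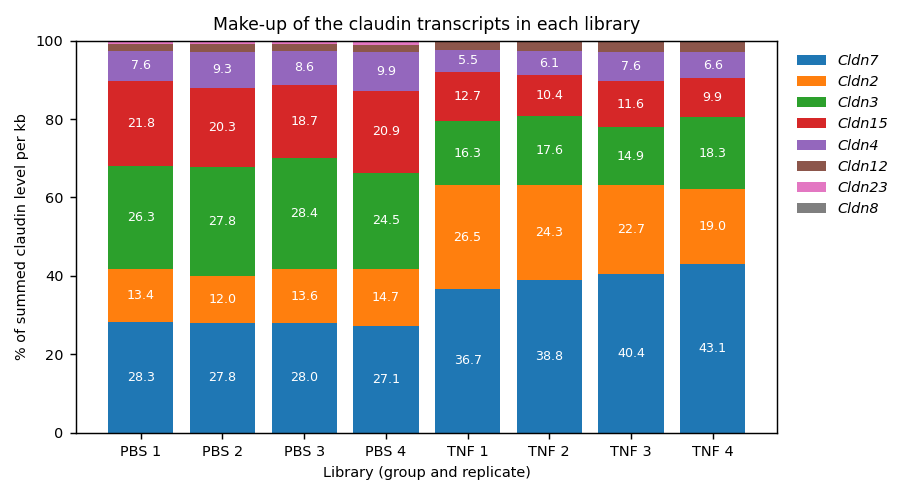
Share of each claudin in the summed claudin level per kilobase (vertical axis, %) in each of the 8 libraries. The segments of Cldn7 (27.8% to 39.7% on average) and Cldn2 (13.4% to 23.1%) are taller in each TNF library than in each PBS library, and those of Cldn3 and Cldn15 are shorter.

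Among the other membrane proteins of the tight junction, F11r rose and Ocln did not. F11r (ENSMUSG00000038235, chr1:171265092-171292958, plus strand) encodes JAM-A, an immunoglobulin-type protein that also takes part in leukocyte passage. It was the highest of the 4 genes per kilobase in PBS. Its values were 51.5, 57.4, 60.5 and 54.7 normalized CPM in PBS and 173, 216, 197 and 211 in TNF. No values overlapped, and the log2 fold change was 1.83 (SE 0.12, edgeR adjusted p = 1.58e-06).

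Ocln encodes occludin, a membrane protein of the tight junction strands. It was at 54.1, 62.4, 57.8 and 57.9 normalized CPM in PBS and at 49.2, 53.5, 45.3 and 52.0 in TNF. Each TNF value was below each PBS value, but the log2 fold change of -0.22 (SE 0.10, 95% interval -0.44 to 0.01) was not called (edgeR adjusted p = 0.119). Without PBS replicate 4 and TNF replicate 4 together it was called lower at -0.24 (edgeR adjusted p = 0.0398). The ratio of F11r to Ocln per kilobase was 1.88 to 2.14 in PBS and 7.20 to 8.89 in TNF. Marveld3, of the same protein family as occludin, rose from 16.6 ± 0.748 to 32.6 ± 5.35 normalized CPM (SD, n = 4; log2 fold change 0.97, edgeR adjusted p = 0.000146), with TNF replicate 4 the highest at 40.4. Marveld2 (tricellulin, found at the corners between cells) was not called, at 12.5 ± 1.07 and 11.7 ± 0.361.

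Of the 4 scaffold and polarity genes under the tight junction, Tjp1 alone was called. Tjp1, which encodes ZO-1, was at 39.4, 40.0, 36.6 and 47.1 normalized CPM in PBS and at 52.0, 54.4, 59.3 and 54.0 in TNF. The groups did not overlap, and the log2 fold change was 0.43 (SE 0.11, edgeR adjusted p = 0.00964). The call was lost without PBS replicate 1 (0.38), without TNF replicate 2 (0.40) or with no filter on low counts beyond 1 count. Tjp3 (ZO-3), the highest of the scaffold genes per kilobase, was at 51.7, 49.7, 51.4 and 56.9 in PBS and 57.2, 52.1, 49.8 and 58.2 in TNF. The groups overlapped, and the log2 fold change was 0.05 (95% interval -0.18 to 0.28). Cgn (cingulin, which links the scaffold to actin and myosin) was at 28.7 ± 4.44 and 29.97 ± 3.88 normalized CPM (SD, n = 4; log2 fold change 0.06, 95% interval -0.25 to 0.37). The polarity gene Pard3 was at 23.5 ± 5.99 and 24.0 ± 5.22 (log2 fold change 0.03, 95% interval -0.41 to 0.47), and neither was called. Pard3 was called higher, at 0.32 (edgeR adjusted p = 0.0497), without both libraries numbered 4.

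Of the 8 adherens junction genes 6 rose, among them both listed cadherins and both listed catenins. Cdh1 (E-cadherin, ENSMUSG00000000303, chr8:107329941-107396880, plus strand) was the highest of them per kilobase. Its values were 346, 336, 339 and 312 normalized CPM in PBS and 551, 647, 723 and 472 in TNF. All TNF libraries were higher, with TNF replicate 4 the lowest, and the log2 fold change was 0.84 (SE 0.16, edgeR adjusted p = 0.00168). Cdh17, the liver-intestine cadherin, was at 194, 201, 192 and 147 in PBS and at 352, 442, 488 and 353 in TNF. It rose by 1.16 on the log2 scale (SE 0.17, edgeR adjusted p = 0.000261), with no overlap.

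Catenins act with cadherins inside the cell, and alpha-catenin ties them to actin. Ctnna1 (alpha-catenin) was at 138, 128, 129 and 134 normalized CPM in PBS and at 296, 289, 307 and 234 in TNF. The groups did not overlap, and the log2 fold change was 1.09 (SE 0.13, edgeR adjusted p = 6.67e-05). Lrrtm2, which lies antisense within it over 138 of 9098 exon bases, had 123 to 213 counts in PBS and 436 to 1409 in TNF against 3281 to 5942 and 2731 to 8764 for Ctnna1. Ctnnd1 (p120-catenin, which keeps cadherins at the surface) rose from 24.5 ± 1.21 to 42.8 ± 3.2 normalized CPM (SD, n = 4), by 0.80 on the log2 scale (edgeR adjusted p = 0.000114). It shares 4482 of its 11919 exon bases with the readthrough gene Gm28635, which had 0 counts in all libraries.

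Nectins are immunoglobulin-type adhesion proteins of the adherens junction, and their genes went in opposite directions. Nectin2 (ENSMUSG00000062300, chr7:19450569-19484408, minus strand) was at 37.1, 35.5, 36.8 and 30.4 normalized CPM in PBS and at 94.0, 99.8, 92.8 and 80.6 in TNF. It rose by 1.39 on the log2 scale (SE 0.12, edgeR adjusted p = 7.02e-06), without overlap. Nectin3 was at 18.0, 18.5, 18.6 and 15.5 in PBS and at 13.1, 9.58, 9.93 and 11.7 in TNF. It fell by 0.67 on the log2 scale (SE 0.13, edgeR adjusted p = 0.00210), also without overlap. The ratio of Nectin2 to Nectin3 per kilobase lay between 6.52 and 7.02 in the PBS libraries and between 23.5 and 35.4 in the TNF libraries.

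Nectin1 was at 27.5, 22.7, 27.9 and 33.2 normalized CPM in PBS and at 35.3, 38.8, 38.2 and 31.8 in TNF, so that PBS replicate 4 lay above TNF replicate 4. Its call was the weakest of the 21 (log2 fold change 0.37, edgeR adjusted p = 0.0407) and was lost without any 1 of PBS replicates 1, 2 and 3 or TNF replicates 1, 2 and 3 (log2 fold changes 0.29 to 0.37), with RLE scaling and with no filter beyond 1 count. Afdn (afadin, which ties nectins to actin) was not called, at 43.5 ± 13.4 and 51.8 ± 6.50. Its PBS values ran from 31.3 to 61.9, with PBS replicate 4 the highest, and without both libraries numbered 4 it was called higher at 0.49 (edgeR adjusted p = 0.00778).

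In the desmosome both listed cadherin genes rose, as did the listed plakophilins Pkp2 and Pkp3, and the other listed plaque genes Jup and Dsp were not called. Dsg2 (desmoglein 2) was at 95.03, 86.2, 85.6 and 102 normalized CPM in PBS and at 258, 278, 293 and 224 in TNF. The groups did not overlap, and the log2 fold change was 1.51 (SE 0.13, edgeR adjusted p = 9.03e-06). Its partner cadherin Dsc2 (desmocollin 2) rose from 71.6 ± 3.13 to 130 ± 13.8 (SD, n = 4; log2 fold change 0.86, edgeR adjusted p = 0.000179). The lncRNA Gm16090 overlaps Dsg2 on the other strand over 330 of 9592 exon bases and had 188 to 365 counts in PBS and 210 to 711 in TNF, against 2173 to 4492 and 2609 to 8340 for Dsg2.

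Plakophilins gather desmosomal proteins at the plaque, and their genes did not move together. Pkp2 went from 21.8 ± 0.961 to 29.4 ± 1.2 normalized CPM (SD, n = 4; log2 fold change 0.43, edgeR adjusted p = 0.00397), and the call was lost with no filter beyond 1 count. Pkp3 went from 21.0 ± 0.565 to 29.3 ± 4.15 (log2 fold change 0.48, edgeR adjusted p = 0.00734), and the call was lost without TNF replicate 2 (0.44). Of the plakophilins outside the list, named here after their values were seen, Pkp1 fell from 32.1 ± 6.02 to 22.7 ± 4.35 (log2 fold change -0.50, edgeR adjusted p = 0.0343), and Pkp4 was not called (0.25). Jup (plakoglobin), the highest desmosome gene per kilobase in PBS, was at 91.9, 82.8, 87.8 and 71.2 normalized CPM in PBS and at 73.9, 86.0, 108 and 70.0 in TNF. The groups overlapped, with a log2 fold change of 0.02 (95% interval -0.32 to 0.36).

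Dsp (desmoplakin), the link to keratin, was at 157, 119, 136 and 200 normalized CPM in PBS and at 114, 101, 123 and 184 in TNF. Replicate 4 was the highest of each group, the groups overlapped, and the log2 fold change of -0.23 (SE 0.21, 95% interval -0.71 to 0.24) was not called. Without TNF replicate 4 it was called lower, at -0.43. The ratio of Dsg2 to Dsp per kilobase was 0.841 to 1.20 in PBS and 3.75, 4.56, 3.93 and 2.02 in TNF replicates 1 to 4.

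**Figure D3:**
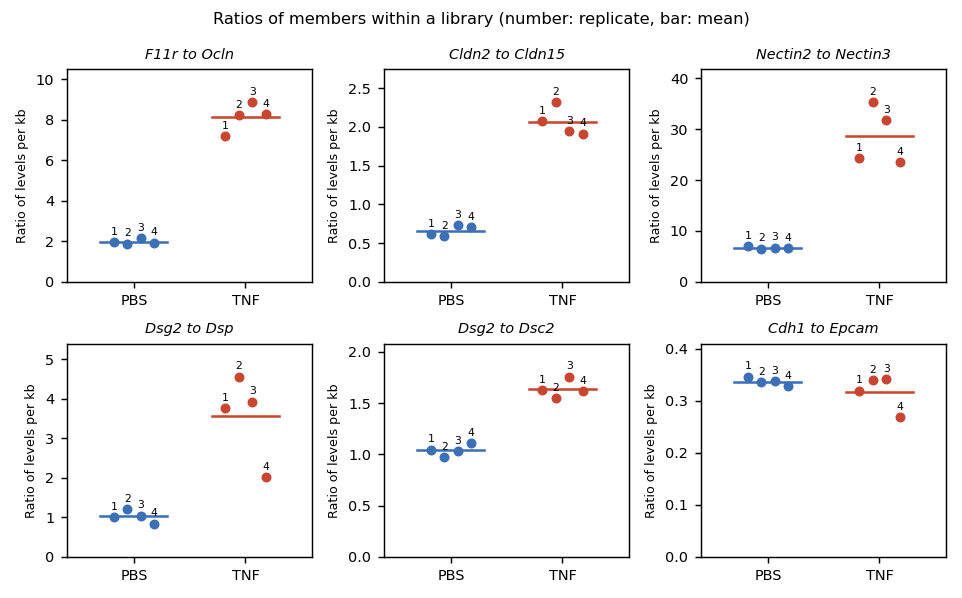
Ratios of levels per kilobase within each library (vertical axes start at 0) for 6 pairs of genes, with PBS in blue, TNF in red, replicate numbers beside points and bars at the mean. Of these pairs, chosen after their values were seen, Cdh1 to Epcam overlaps between groups (0.337 and 0.317 on average), while the other 5 do not.

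Epcam (ENSMUSG00000045394, chr17:87943407-87958557, plus strand), an adhesion protein of the whole lateral membrane that binds Cldn7, had the highest level per kilobase of all members in both groups. It was at 394, 394, 395 and 375 normalized CPM in PBS and at 679, 751, 834 and 693 in TNF. It rose by 0.93 on the log2 scale (SE 0.14, edgeR adjusted p = 0.000350), without overlap. The ratio of Cdh1 to Epcam per kilobase was 0.337 ± 0.00753 in PBS and 0.317 ± 0.0341 in TNF (SD, n = 4), with overlapping values.

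The order of the members by level changed in part. In PBS the highest per kilobase were Epcam (223 ± 5.65), Cldn7 (101 ± 7.62), Cldn3 (97.4 ± 12.2), Cdh1 (75.2 ± 3.36) and Cldn15 (74.1 ± 3.47), where Cldn7 and Cldn3, and Cdh1 and Cldn15, lay within each other's SD. In TNF they were Epcam (424 ± 40.5), Cldn7 (287 ± 27.7), Cldn2 (167 ± 27.3), Cdh1 (135 ± 24.8) and Cldn3 (121 ± 16.1), where Cdh1, Cldn3 and the next gene, Cdh17 (118 ± 19.5), lay within each other's SD. Only Cldn8 and Icam1 were under 1 normalized CPM per kilobase in PBS among the tested members.

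**Figure D4:**
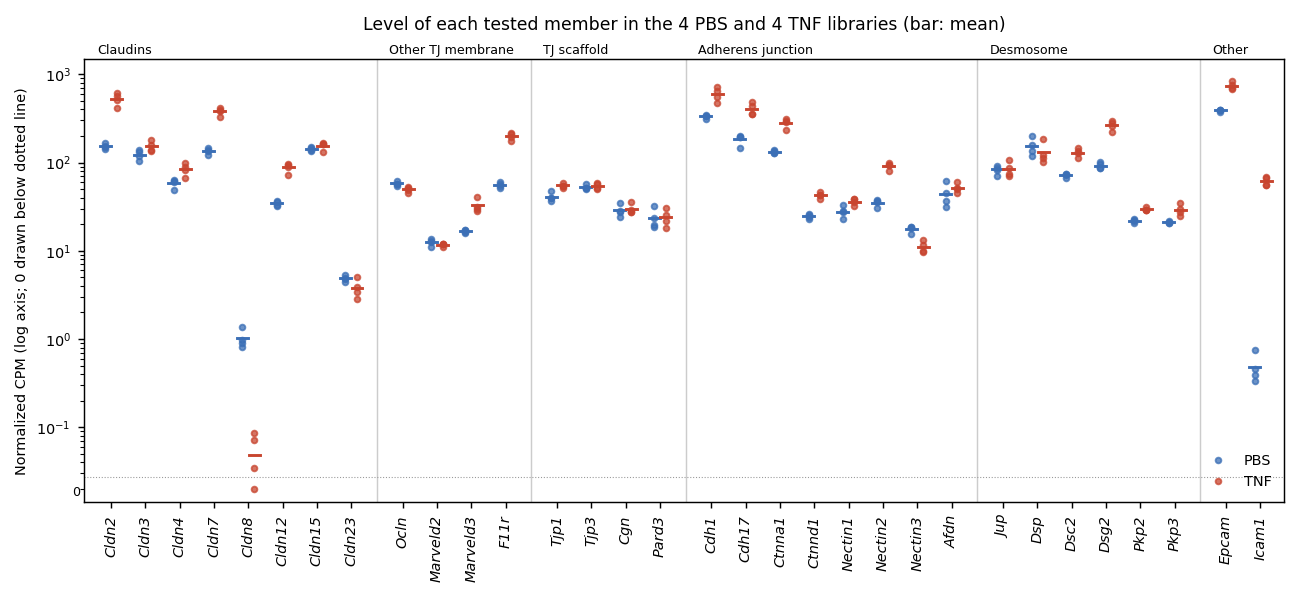
Normalized CPM (vertical log axis) of each tested gene in the 4 PBS (blue) and 4 TNF (red) libraries, with bars at the group means and a value of 0 drawn below the dotted line. Icam1 goes from under 1 to between 55.4 and 68.4, Cldn8 goes from about 1 to under 0.1, and the other genes stay within the same order of magnitude.

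Other genes of the same or related structures were counted from lists of partner genes. Each count reads against the 23.4% of all tested genes called higher and the 19.6% called lower. Of 16 tested tight junction partners 10 rose and 1 fell. The 3 with the smallest p among those changed at least 2-fold were Cxadr, a JAM-like viral receptor (log2 fold change 2.55, edgeR adjusted p = 4.52e-07), and the polarity genes Pard6b (1.20) and Pals1 (1.19). Mylk, whose kinase contracts the ring of actin under the junction, was at 1.83 ± 0.307 and 2.20 ± 0.929 normalized CPM (SD, n = 4) and was not called. Of 12 tested genes on the adherens list 3 rose and 2 fell, shares near those of all tested genes. Pvr, a nectin-like receptor, was at 1.64 and the catenin-family gene Arvcf at -1.32. This list also holds the cadherin-related genes Cdhr2 and Cdhr5, which are not adherens junction genes and were not called. Ctnnb1 (beta-catenin) was not called, at 379 ± 15.4 and 393 ± 40.4. Of 10 desmosome and keratin partners 6 rose and 1 fell. The risers were 5 keratin genes, with Krt19 at 1.81, Krt8 at 1.28 and Krt20 at 1.02, and the desmosome gene Perp (0.52). The gene that fell was Pkp1, and Ppl, Evpl and Pkp4 were not called.

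Outside the junctions, 9 of 14 genes for adhesion to the matrix rose and 1 fell, beside the same shares of all tested genes. Among them were the integrin subunits Itga3 (log2 fold change 3.03) and Itgav (2.18). Only 3 of 14 listed genes for leukocyte and immunoglobulin-type adhesion passed the filter, of which Ceacam1 (2.07) and Cd47 (1.49) rose and Alcam fell by 0.53 on the log2 scale. Icam5, Madcam1, Selp, Sele and Itgb2 had 0 counts in all libraries, and Vcam1 and Icam2 were at 0 in PBS and at 0.0444 ± 0.0887 and 0.0438 ± 0.0442 normalized CPM in TNF (SD, n = 4). Of 4 tested gap junction genes 1 rose (Panx1, 0.44), a share near that of all tested genes. Of 7 tested surface proteases and inhibitors 4 rose and 1 fell, with St14 at 1.46 and its inhibitor Spint1 at 1.38.

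The calls did not rest on the libraries that stood apart. Without PBS replicate 4 and TNF replicate 4 together, all 21 calls were kept, and 4 were added (Afdn and Pard3 higher, Ocln and Dsp lower). Calls were more frequent over all genes too, with 56.9% of all tested genes called in that fit against 43% with all libraries. The class medians were then 0.27 for the tight junction, 0.88 for the adherens junction and 0.49 for the desmosome. Of the 21 called genes 9 kept their call and direction under every alternative in which they were tested, and these were Icam1, Cldn2, Cldn7, Cldn8, Cldn12, F11r, Nectin2, Nectin3 and Dsg2. Cldn8 was not tested where a gene needed 1 CPM or more in 4 libraries.

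**Figure D5:**
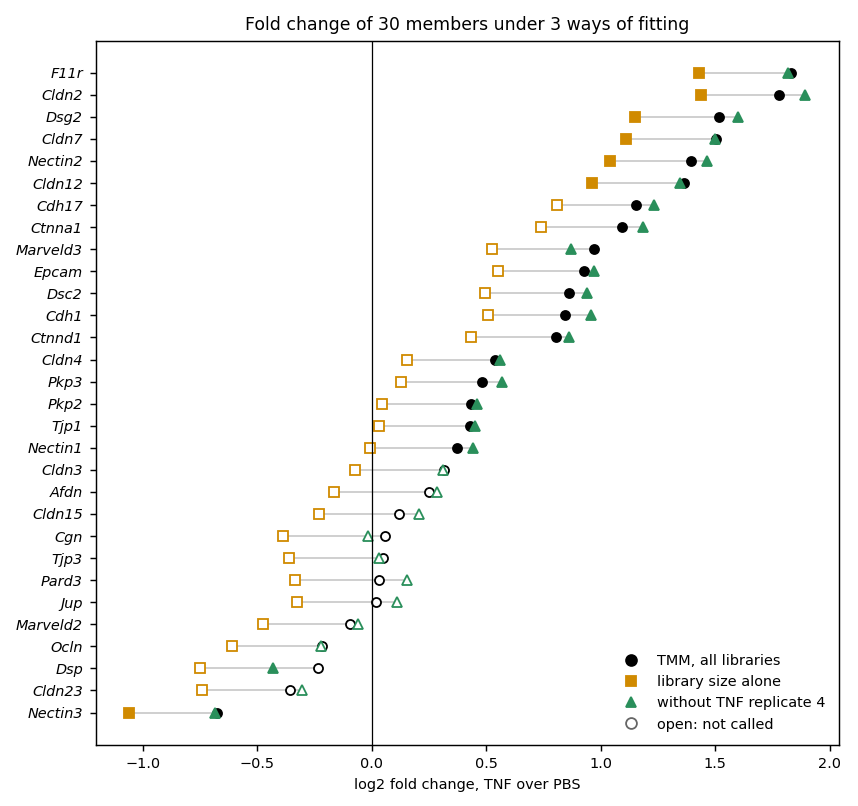
Log2 fold change (TNF over PBS, horizontal axis) of 30 members, all tested genes except Icam1 and Cldn8, with TMM factors (black), total counts alone (orange) and without TNF replicate 4 (green); open symbols were not called. With total counts all 30 values lie further left, 12 upward calls are not made and small values such as that of Cldn3 turn (0.32 to -0.07), while leaving out TNF replicate 4 moves most genes little and calls Dsp lower.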

How the data were processed

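The authors deposited raw counts per Ensembl gene ID, with 1 column per library and no normalization. Per the labels, the Aurum Total RNA Mini kit gave the RNA, and the TruSeq Stranded mRNA kit the libraries. The submitters' processing notes name FastQC 0.12, STAR 2.7.10a, DESeq2 and the mm39 genome. How reads were counted, whether by strand, and what was done with reads of several genes is not stated in the sources used here, so overlapping and antisense genes are uncertain. The study describes its sorted samples as coming from individual mice; the labels themselves do not name the animals.

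Gene IDs were named with GENCODE release 39 for mouse (GRCm39), which matched 54749 of 55414 IDs. Unmatched IDs stayed in library sizes and tests. All 4 PBS and 4 TNF libraries entered edgeR 4.0.16 (R 4.3.3), whose quasi-likelihood F test was run on the deposited counts with TMM factors and filterByExpr, without covariates. The Benjamini-Hochberg adjustment ran over all 13368 tested genes. SE were derived from the F statistic. Intervals of a fold change are at the 95% level, and that of Cldn8 is an exact conditional interval of summed counts scaled by adjusted library size. The Cldn8 interval and the limit of 3 counts for a count of 0 cover counting error only. Intervals of the other members come from the SE, which takes in the spread between libraries. No source used here describes molecular identifiers. The fit was first tested on simulated data.

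The members, classes, partner lists, marker lists and the rule for named genes were chosen with earlier results of these data known. Values per library were given for Icam1, for members called at 2-fold or more, for the member of each class with the highest level per kilobase in PBS, and for Cldn2, Ocln, Tjp1, Cdh1, Dsp and Epcam. Partner genes were named where called at 2-fold or more, up to 3 per list with the smallest p, and some listed genes are not reported here. Others that are named (Nectin3, Mylk, Ctnnb1, Alcam, Panx1, Vcam1 and Icam2 among them) and the pairs whose ratios are given were chosen after their values were seen. No libraries of a group were duplicates (lowest chi-square per degree of freedom 8.77). Deviations of libraries with the same replicate number correlated at 0.02, 0.07, -0.14 and -0.13, so the numbers were not taken to pair the samples.

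Alternatives were RLE scaling, total counts alone, TMM without Defa, Lyz1 and Itln1, no filter beyond 1 count, a minimum of 1 CPM in 4 libraries, limma-voom (limma 3.58.1), DESeq2 1.42.0, a threshold of 0.01, a block for the replicate number, offsets for GC content and transcript length (4-df splines) with and without the block, and leaving out each library. Leaving out PBS replicate 4 and TNF replicate 4 together was added after seeing the data.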

Additional observations from a re-analysis of the deposited data

Results flagged for a closer look

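Each group of 4 normalized CPM values of the 32 tested genes was checked for a single library far from the other 3 (Dixon's ratio at the 95% level). Of 64 groups 5 were marked, where chance marks about 1 in 20. The marked values were Cldn15 in TNF replicate 4 (131 against 161 to 165.1 in the other TNF libraries), Marveld2 in TNF replicate 4 (11.2 against 11.9 in each of the others), Cdh17 in PBS replicate 4 (147 against 192 to 201), Pkp2 in TNF replicate 2 (31.2 against 28.7 to 29.0) and Epcam in PBS replicate 4 (375 against 394 to 395). All but the Pkp2 value are from the pair of libraries that stood apart in the level of long against short transcripts, and the cause was not tested.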

How the results depend on the processing

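Scaling by total counts alone changed most. It gave 3182 called genes in place of 5747 (23.8% higher in place of 54.3%), 7 members higher, and class medians of -0.15 (tight junction), 0.47 (adherens junction) and 0.086 (desmosome). It turned the log2 fold changes of Cldn3 (-0.073), Cldn15 (-0.23), Tjp3 (-0.36), Cgn (-0.39), Pard3 (-0.34), Nectin1 (-0.0075), Afdn (-0.16) and Jup (-0.33), of which Nectin1 alone was a called gene. With a minimum of 1 CPM in 4 libraries, Cldn8 was not tested, 1 member was lower and the tight junction median was 0.30. Without PBS replicate 4 and TNF replicate 4, 4 members were lower.

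Other turns were near 0 and uncalled in each fit: Jup with no filter beyond 1 count (-0.018), and over the fits that left out 1 library, Cgn from -0.019 to 0.12, Pard3 from -0.10 to 0.19, Jup from -0.12 to 0.11 and Tjp3 from -0.0081 to 0.10. The tight junction median ranged from 0.13 (without TNF replicate 2) to 0.26 over those fits. Members called higher ranged from 15 (without TNF replicate 2) to 19, members called lower from 2 to 3, all called genes from 4756 to 6922, and Icam1 from 6.80 to 7.21. With the replicate number as a block 5087 genes were called, 18 members were higher and 2 lower, and the Nectin1 call was lost. At an adjusted p under 0.01, 3909 genes were called, with 17 members higher and 2 lower. The other settings kept the counts of members called within 1.5 times. Depth limits Cldn8 and Icam1, which had at most 37 counts per PBS library, and genes such as Vcam1 that were at or near 0.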
